A study of Mus musculus with 96 samples.

Results

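Chromatin accessibility in hepatocyte nuclei was compared between the morning and the early night in mice that were never without food. The comparison takes the 4 fed mice killed at ZT4 against the 4 fed mice killed at ZT15, which makes 8 of the 64 mice measured, over all 46832 hepatocyte peaks listed by the authors. Zeitgeber time (ZT) counts hours from lights on, so that ZT4 lies in the rest phase and ZT15 lies 3 h into the active phase that starts at ZT12. All mice were female HEP-INTACT animals with food ad libitum, the controls of a fast that began at ZT12. The ZT15 mice were the controls at 3 h and the ZT4 mice the controls at 16 h. INTACT is the capture of tagged nuclei of 1 cell type on beads, and ATAC-seq uses a transposase to cut and tag open DNA. What drives the nuclear tag, the strain and the age of the mice are not given in the sources used here. Each library carries its own mouse number. Other fed mice, at ZT20 and at ZT12 (24 h), and mice fasted from ZT12 and killed at the same times are named where they are used, as are fed MAC-INTACT mice, whose tagged nuclei come from macrophages.

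The circadian clock of hepatocytes is a feedback loop. BMAL1 (gene Arntl) with CLOCK or NPAS2 binds E-box sequences and activates the Per, Cry, Nr1d and Dbp genes. PER and CRY proteins then inhibit that complex, REV-ERB proteins (Nr1d1, Nr1d2) repress genes that ROR receptors activate, and DBP, TEF and HLF act through D-box sequences that the repressor NFIL3 also binds. In the liver the clock runs together with the rhythm of feeding, which drives insulin, fat synthesis and glycogen storage by night in mice, and with the rhythm of glucocorticoids.

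A value is given in normalized reads in a peak of 200 bp. A difference is the ZT4 mean minus the ZT15 mean of log2(normalized reads + 2), given ± SE from limma, and a fold is 2 raised to the size of that difference, so that changes of low peaks are understated. A peak is called higher or lower where its Benjamini-Hochberg adjusted p, over all tested peaks, is under 0.05. Each peak carries the name of the gene with the nearest transcription start site (TSS), which does not show that the peak acts on that gene. A difference in such bulk nuclei can come from fewer cells with open DNA or from less open DNA per cell, and these cannot be told apart.

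Of 46827 tested peaks, 3945 were higher at ZT4 than at ZT15 (8.42%) and 2667 were lower (5.70%). The higher peaks had a median difference of 0.53 and lay nearest to 2741 genes, and the lower peaks had a median of −0.77 and lay nearest to 1872 genes. Differences of at least 2-fold were more often falls, with 494 higher and 684 lower peaks. Among the peaks that passed, 3267 of the higher and 2245 of the lower had no overlap between the 4 and 4 mice, while 9673 of all tested peaks had none in either direction (20.7%). The share of passing peaks that were higher was 59.7% on the deposited scale. It was 43.5% after centring each library on its median, with 2502 higher and 3247 lower peaks, 44.0% after quantile normalization with 2675 and 3411, 44.2% in edgeR with 2650 and 3345, and 38.5% in DESeq2 with 2272 and 3627. The median difference of all peaks was 0.085 on the deposited scale and between 0.0046 and 0.030 on these other scales.

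**Figure D1:**
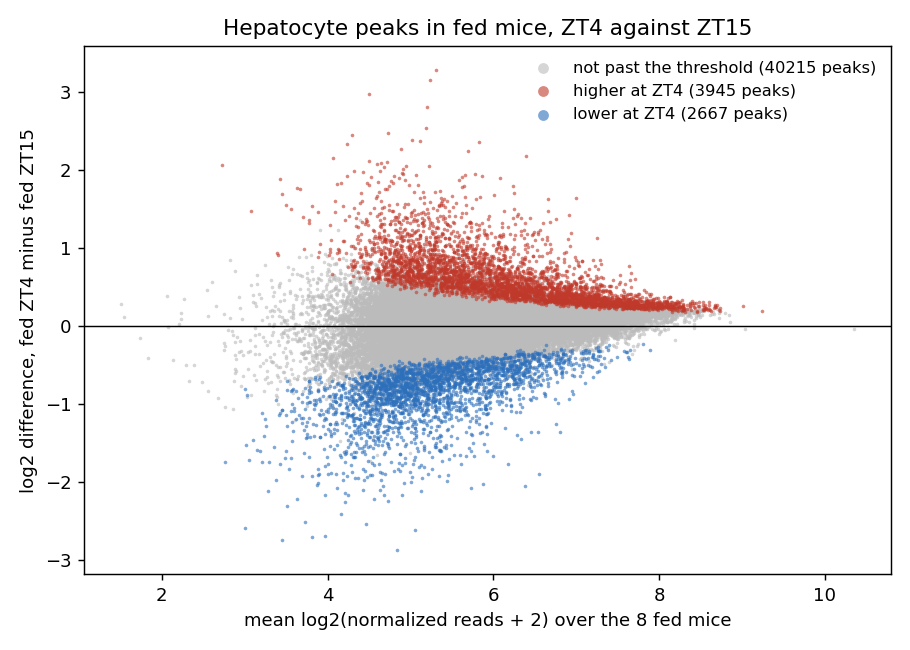
Each point is a tested hepatocyte peak, with its mean log2(normalized reads + 2) over the 8 fed mice on the x axis and its log2 difference, fed ZT4 minus fed ZT15, on the y axis. The 3945 higher peaks are red and reach 3.28, and the 2667 lower peaks are blue and reach −2.88.

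ZT4 was the extreme of the fed day for most of these peaks. Of the 3945 higher peaks, 3626 had their highest fed mean at ZT4, 271 at ZT12 and 48 at ZT20. Their lowest fed mean was at ZT15 in 2907, at ZT12 in 701 and at ZT20 in 337. Of the 2667 lower peaks, 2450 had their lowest fed mean at ZT4, and the highest was at ZT15 in 1690, at ZT12 in 838 and at ZT20 in 139. ZT4 and ZT15 were the times the peaks were chosen on, so these counts are a description.

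The 4 ZT4 libraries held 3117114 to 4813340 reads in listed peaks and the 4 ZT15 libraries 4353411 to 4940608, and the groups overlapped (two-sided exact permutation test, p = 0.371). The share of these reads in peaks within 1 kb of a TSS was 46.6% ± 1.18 (SD, n = 4) at ZT4 and 44.8% ± 0.485 (SD, n = 4) at ZT15, without overlap (p = 0.0286 in the same exact test, the smallest it can give). Hepatocyte markers had 99 peaks near 11 of 12 genes, with Alb and Apoa1 at 19 each, which encode major secreted proteins of hepatocytes. Of 12 Kupffer cell and macrophage markers only Csf1r had a peak, summing to 12.8 to 32.9 normalized reads at ZT4 and 28.2 to 33.4 at ZT15. Sinusoidal endothelial markers had 17 peaks near 8 of 12 genes, with summed levels of 916 to 987 at ZT4 and 813 to 889 at ZT15. Cholangiocyte markers had 13 peaks near 4 of 8 genes, with 708 to 891 and 632 to 701. The 1 peak of the stellate cell list, near Reln, had 32.9 to 79.6 at ZT4 and 10.3 to 24.7 at ZT15. Markers of monocytes and neutrophils (8 peaks) and of lymphocytes (4 peaks) had none past the threshold. The part of promoter share or of other cell types in the results was not tested.

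Peaks at promoters were higher more often than lower. Of 16351 peaks within 1 kb of a TSS, 9.99% were higher at ZT4 and 1.61% lower. Of 23385 peaks at 1 to 50 kb, 7.44% were higher and 7.99% lower, and of 7091 peaks beyond 50 kb, 8.08% were higher and 7.53% lower. Promoter peaks kept more rises than falls on every scale, with 5.32% against 2.12% after median centring, 4.28% against 2.48% after quantile normalization and 3.94% against 2.42% in DESeq2. Peaks at 1 to 50 kb then had more falls, with 5.23% higher and 9.80% lower after centring. The promoter read share given above moved with this difference.

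Promoter sequences were searched for the motifs of clock and metabolic factors. RefSeq promoter windows (GRCm38.p6, 250 bases before to 50 after a start) were matched to peaks by gene name, which worked for 10713 of 14262 names, and 8446 windows overlapped a tested peak by at least 100 bp. Letters were searched on both strands. The E-box CACGTG was in 148 of 852 windows under a higher peak (17.4%), in 5 of 84 under a lower peak (5.95%), in 11.4% of all 8446 and in 7.15% of all 32851 RefSeq windows. The D-box TTANGTAA was in 13 of 84 windows under a lower peak (15.5%), in 11 of 852 under a higher peak (1.29%), in 1.46% of all 8446 and in 2.32% of all RefSeq windows. The 13 include the related carboxylesterase genes Ces1b, Ces1e and Ces1g, so they are not all independent. With centred libraries, the E-box share of higher windows was 22.6% and the D-box share of lower windows 13.1%. The C/EBP letters TTGCGCAA or TTGCATAA were in 4 of 84 lower windows (4.76%) and in 1.09% of all, and the RORE core TAGGTCA in 3 of 84 (3.57%) and in 1.94%. The median GC content was 65% in higher windows, 57% in lower windows and 62% in all, and its part in these shares was not tested. These are matches of letters, not measured binding.

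**Figure D2:**
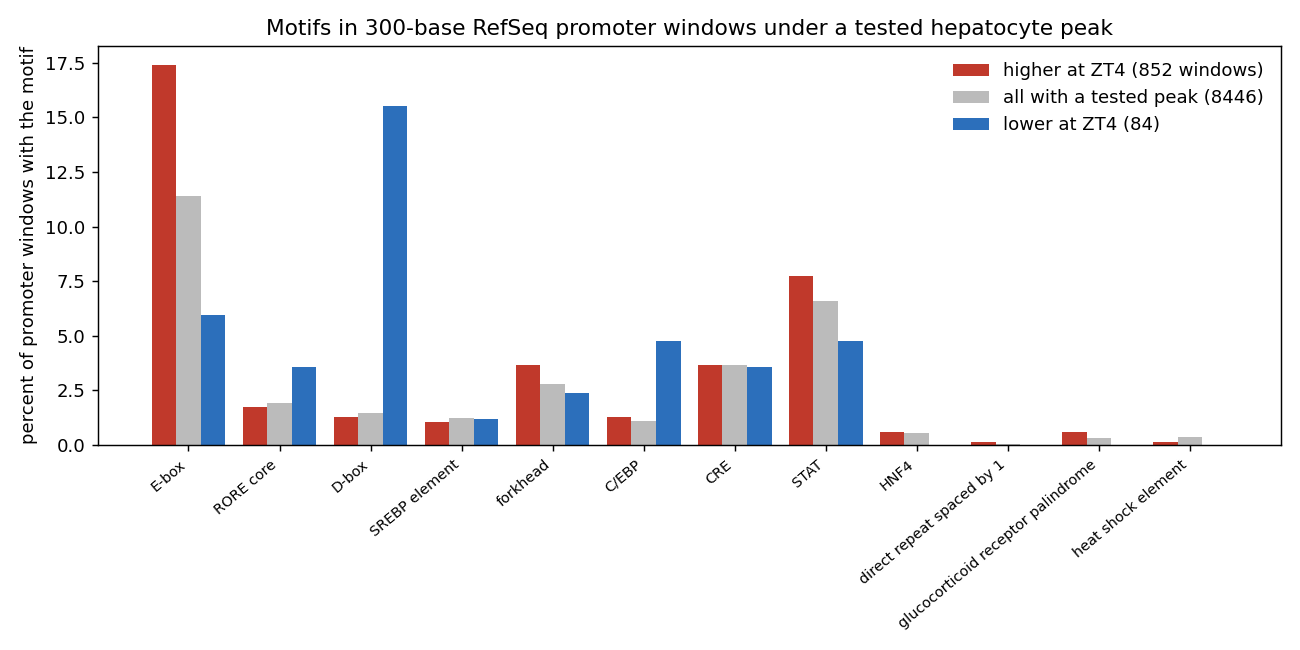
Bars give the percent of 300-base promoter windows that hold each motif on either strand, for 852 windows under a higher peak (red), all 8446 windows under a tested peak (grey) and 84 under a lower peak (blue). The E-box stands at 17.4% in the higher windows and the D-box at 15.5% in the lower windows.

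The stretches around the motif are shown for 4 E-box windows that rose, those of smallest p among genes that are also the authors' nearest gene and have the motif upstream of the start, passing over predicted genes, 5′ to 3′ on the gene's strand with CACGTG in capitals.
Zfp292, chr4:34882949-34883023, minus strand: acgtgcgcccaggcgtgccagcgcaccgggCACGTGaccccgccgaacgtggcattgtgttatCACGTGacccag
Jade1, chr3:41564630-41564675, plus strand: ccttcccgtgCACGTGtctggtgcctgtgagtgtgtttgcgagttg
Ppfia4, chr1:134344800-134344865, minus strand: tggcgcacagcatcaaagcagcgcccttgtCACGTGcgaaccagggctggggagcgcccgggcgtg
Met, chr6:17463801-17463866, plus strand: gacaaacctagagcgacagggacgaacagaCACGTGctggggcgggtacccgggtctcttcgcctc
The peak at Zfp292, a zinc finger protein gene with 2 copies of the motif in its promoter, had 242, 252, 259 and 262 normalized reads in the ZT4 mice and 157, 164, 149 and 160 in the ZT15 mice. Every ZT4 mouse was above every ZT15 mouse, and the difference was 0.68 ± 0.07 (adjusted p = 3.0e-08). At Jade1, which encodes a subunit of a histone acetyltransferase complex, the ZT4 mice had 187, 206, 179 and 165 and the ZT15 mice 78.9, 106, 59.0 and 79.8, a difference of 1.19 ± 0.13 without overlap. The window under Ppfia4 lies at a RefSeq start, while the authors' annotation measures the peak's distance from another start of that gene, far downstream. Its difference was 1.04 ± 0.12. Met, the receptor of hepatocyte growth factor, rose from 98.5 ± 8.02 to 168 ± 13.7 (SD, n = 4), a difference of 0.76 ± 0.10.

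The same is shown for 4 D-box windows that fell, chosen by the same rule, with the 8 bases of the motif in capitals.
Trak1, chr9:121366915-121366957, plus strand: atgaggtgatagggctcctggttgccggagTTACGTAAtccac
Ces1b, chr8:93079987-93080054, minus strand: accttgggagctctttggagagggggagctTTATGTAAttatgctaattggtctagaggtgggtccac
Gde1, chr7:118705874-118705941, minus strand: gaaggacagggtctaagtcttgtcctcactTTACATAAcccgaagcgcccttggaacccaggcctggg
Wnt5b, chr6:119467293-119467360, minus strand: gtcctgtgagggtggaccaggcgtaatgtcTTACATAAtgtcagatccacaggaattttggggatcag
At Trak1, an adaptor that links mitochondria to kinesin motors, the ZT4 mice had 16.1, 27.9, 27.5 and 14.9 normalized reads and the ZT15 mice 81.5, 56.8, 78.8 and 81.2. The groups were far apart, with a difference of −1.73 ± 0.19 (adjusted p = 3.8e-08). Ces1b belongs to a cluster of related carboxylesterase genes, and whether its reads map there alone was not tested. It went from 92.3 ± 7.65 at ZT15 to 46.4 ± 3.51 at ZT4 (SD, n = 4). Gde1, a glycerophosphodiesterase, went from 123 ± 19.5 to 71.1 ± 6.66, and Wnt5b, a secreted signalling protein, from 82.6 ± 11.6 to 45.7 ± 9.66. Neither gene's groups overlapped.

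Among named genes, the largest rises lay mostly away from promoters. They were drawn only from passing peaks at which the 4 and 4 mice did not overlap. At a peak 26814 bases inside Smyd1, a muscle histone methyltransferase gene (chr6:71235367-71235567, mm10), the ZT4 mice had 102, 142, 175 and 86.1 normalized reads and the ZT15 mice 11.6, 8.85, 15.8 and 7.98. The difference was 3.28 ± 0.30, 9.72-fold, with an adjusted p of 9.6e-10. At an intergenic peak 10789 bases upstream of Smad5, a mediator of BMP signals (chr13:56692121-56692321), the ZT4 mice had 65.7, 55.8, 72.7 and 53.1 and the ZT15 mice 9.63, 3.69, 5.48 and 6.53. This was a 7.86-fold difference, and the lowest ZT4 mouse was more than 5 times above the highest ZT15 mouse. An intron of Pik3r1, the regulatory subunit of the kinase that carries the insulin signal (chr13:101753784-101753984), had 116, 91.3, 83.5 and 93.5 at ZT4 and 15.4, 9.59, 12.3 and 10.9 at ZT15, a difference of 2.81 ± 0.23 (adjusted p = 7.0e-11). Gys2, the glycogen synthase of liver, had a peak in an exon (chr6:142451522-142451722) with 138, 96.9, 103 and 107 at ZT4 and 19.3, 23.6, 23.3 and 21.0 at ZT15, a difference of 2.24 ± 0.19 (adjusted p = 7.4e-11). At all 4 peaks every ZT4 mouse was above every ZT15 mouse, which the choice of peaks required.

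The other rises among the 12 largest without overlap of the 4 and 4 mice ran from 2.54 down to 2.18. They lay near Ntrk2 (the receptor of the neurotrophin BDNF), Pmp2 (a fatty acid binding protein), Cyp2e1 (the cytochrome P450 that oxidizes ethanol), G3bp1 (a stress granule protein), Sdr9c7 (a dehydrogenase), Prkca (protein kinase C alpha), D7Ertd443e and Lekr1. The Ntrk2 peak had 83.2, 80.2, 90.4 and 88.2 normalized reads at ZT4 and 13.5, 9.59, 17.1 and 13.1 at ZT15. The peak upstream of Lekr1 was the most open of the 12, with 193, 185, 174 and 158 at ZT4 and 35.3, 31.7, 45.9 and 38.4 at ZT15. Pmp2 was the most uneven, since 1 ZT4 mouse had 109 and the other three 44.6 to 55.2.

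The 12 largest falls among named genes were also drawn only from passing peaks without overlap. They were at peaks with fewer than 20 normalized reads in every ZT4 mouse. With an offset of 8 the differences at Ier3, B2m, Dpysl2 and Nfyc were smaller by over 1.5 times. The largest fall of all, −2.88, lay nearest a predicted gene. At a peak 13452 bases upstream of Ier3, an immediate early gene (chr17:35808161-35808361), the ZT4 mice had 2.80, 0.697, 1.97 and 4.25 normalized reads and the ZT15 mice 29.5, 25.8, 21.3 and 29.7. The difference was −2.74 ± 0.24 (adjusted p = 2.6e-10), on a scale that understates such low peaks. An intron of Mcrip2, a regulator of MAPK-dependent repression (chr17:25866239-25866439), had 11.2, 9.76, 9.83 and 15.9 at ZT4 and 72.5, 81.9, 81.6 and 86.3 at ZT15, a difference of −2.61 ± 0.19 (adjusted p = 1.1e-11). A peak upstream of B2m, the light chain of MHC class I (chr2:122143789-122143989), had 0.699, 1.39, 0.983 and 2.13 at ZT4 and 11.6, 22.1, 23.3 and 16.0 at ZT15. An intron of Gldc, the decarboxylase of the glycine cleavage system (chr19:30162896-30163096), had 6.99, 13.2, 9.83 and 11.7 at ZT4 and 62.2, 55.3, 52.8 and 52.9 at ZT15. In each of these the ZT15 mice were all above the ZT4 mice, which the choice of peaks required.

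The remaining falls among the 12 lay near Nsg1 (a vesicle protein of neurons), Moxd1 (a monooxygenase), Slain2 (a microtubule protein), Vcam1 (an adhesion molecule), Zfp467 (a zinc finger protein), Dpysl2 (a cytoskeleton regulator), Col27a1 (a collagen) and Nfyc (a subunit of the factor that binds CCAAT boxes). Their differences ran from −2.70 to −2.22, and the lack of overlap was again a condition of the choice. The Moxd1 peak was the most even, with 2.80, 4.88, 4.91 and 4.25 normalized reads at ZT4 and 41.1, 36.1, 38.4 and 36.3 at ZT15.

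The genes of the clock loop moved in both directions. Of 63 peaks within 50 kb of the 10 clock repressor genes, 13 were higher at ZT4 and 11 lower (20.6% and 17.5%, beside 8.42% and 5.70% of all peaks). After median centring these were 11 and 14. The list's median was 0.00. Nr1d1, which encodes REV-ERB alpha, had 5 of its 6 peaks higher. Its peak of largest difference, in an intron (chr11:98772940-98773140), had 90.9, 96.2, 107 and 104 normalized reads at ZT4 and 41.1, 26.6, 23.3 and 32.6 at ZT15, a difference of 1.65 ± 0.18 (adjusted p = 2.0e-08). Every ZT4 mouse was more than 2 times above the highest ZT15 mouse. Cry2 had 136, 119, 141 and 121 at ZT4 and 72.5, 72.3, 65.1 and 63.8 at ZT15 in an intron peak (0.90 ± 0.13), but another of its 9 peaks was lower (−0.71). The Nr1d2 promoter rose by 0.30 ± 0.07, from 309 to 347 across the ZT15 mice to 367 to 432 across the ZT4 mice, but the difference was 0.09 (adjusted p = 0.14) after quantile normalization. Per1 rose by 0.37 ± 0.10 at a peak 4036 bases upstream, with 174, 191, 193 and 192 against 141, 166, 130 and 143, and by 0.23 after quantile normalization. A peak 129 bases upstream of Bhlhe40, which encodes the repressor DEC1, rose by 0.34 ± 0.09, but had 0.17 (adjusted p = 0.12) after quantile normalization and an adjusted p of 0.067 without ZT15 mouse 3. Bhlhe41, its relative DEC2, had 2 peaks higher and 1 lower.

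Per2, Per3, Cry1 and Ciart had no higher peak. Per2 had 4 of 15 peaks lower. In an intron peak (chr1:91455673-91455873) the ZT4 mice had 37.8, 29.3, 27.5 and 30.8 normalized reads and the ZT15 mice 57.8, 67.9, 57.6 and 71.8, a difference of −0.98 ± 0.15 (adjusted p = 2.2e-05). Its promoter overlapped between groups, at 120, 152, 181 and 156 against 156, 193, 149 and 183 (adjusted p = 0.33). Per3 (chr4:151043374-151043574) had 25.9, 19.5, 21.6 and 18.1 at ZT4 and 61.6, 38.4, 54.2 and 58.8 at ZT15, a difference of −1.24 ± 0.17. Ciart, which encodes the repressor CHRONO, had 14.0, 13.2, 17.7 and 19.1 at ZT4 and 61.6, 40.6, 52.8 and 47.9 at ZT15 in an intron (−1.55 ± 0.24, adjusted p = 1.4e-05). Both genes were thus separated at an inner peak. Cry1 had 1 of 7 peaks lower, by −0.64 ± 0.15.

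**Figure D3:**
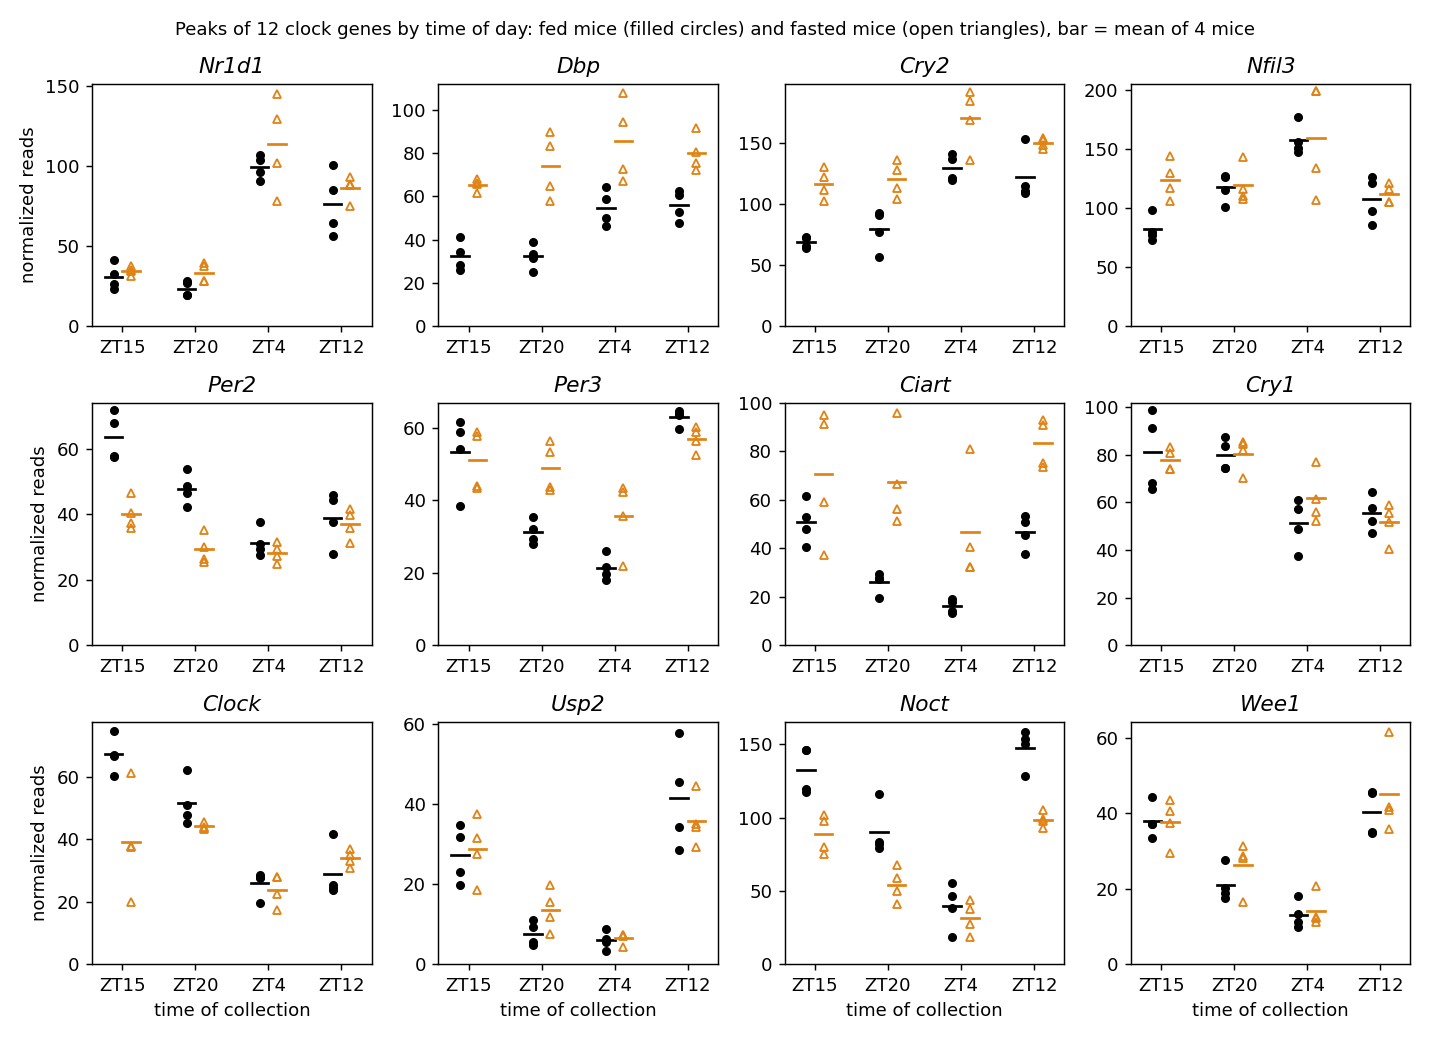
Each panel shows 1 peak of a clock gene, with normalized reads on the y axis and the time of collection on the x axis, in order from 3 h to 24 h after ZT12. Filled circles are single fed mice, open triangles fasted mice, and bars are means of 4 mice. In fed mice, the Noct and Per3 peaks are lowest at ZT4 and the Nr1d1 and Cry2 peaks are highest there.

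Promoters of clock genes with E-boxes or D-boxes did not all move, as the following 3 stretches show, with the motifs in capitals.
Bhlhe41, chr6:145865538-145865603, minus strand: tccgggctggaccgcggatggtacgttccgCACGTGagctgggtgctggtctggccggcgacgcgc
Ciart, chr3:95882237-95882374, minus strand: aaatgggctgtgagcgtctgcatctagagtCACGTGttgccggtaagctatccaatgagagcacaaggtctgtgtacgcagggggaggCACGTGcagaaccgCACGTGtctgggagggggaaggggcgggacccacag
Per3, chr4:151044786-151044900, minus strand: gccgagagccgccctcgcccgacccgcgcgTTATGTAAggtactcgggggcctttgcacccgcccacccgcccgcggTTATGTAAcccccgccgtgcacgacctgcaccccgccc
The Bhlhe41 promoter, with 1 E-box, had 93.7, 79.5, 89.4 and 83.9 normalized reads at ZT4 and 38.5, 47.2, 61.0 and 59.5 at ZT15, a difference of 0.75 ± 0.20 (adjusted p = 0.0093). The Ciart promoter, with 3 E-boxes, had 121 ± 4.34 and 140 ± 16.2 (SD, n = 4), with overlap and an adjusted p of 0.29. The Per3 promoter, with 2 D-boxes, had 127 ± 13.0 and 133 ± 3.21, with overlap and an adjusted p of 0.64. The peak nearest the TSS of Nr1d1, Arntl and Dbp did not pass either, with adjusted p values of 0.62, 0.96 and 0.36. Another peak within 1 kb did pass at Nr1d1 (chr11:98775455-98775655, 0.95 ± 0.13, adjusted p = 2.1e-06) and at Dbp (chr7:45705997-45706197, 0.85 ± 0.27, adjusted p = 0.028).

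Among the clock activators, Clock had 28.0, 19.5, 27.5 and 28.7 at ZT4 and 66.7, 67.1, 60.3 and 74.7 at ZT15 at an intron peak (−1.32 ± 0.20, adjusted p = 1.8e-05). Npas2, the partner that can replace CLOCK, had 1 higher peak (0.74 ± 0.19, adjusted p = 0.0088, and 0.053 without ZT15 mouse 3), and 1 ZT15 mouse at 66.7 overlapped the ZT4 range of 59.4 to 82.9. None of the 6 peaks of Arntl passed, and the one of smallest p had 96.2 to 143 at ZT4 and 81.2 to 110 at ZT15. Rora had a low peak with 3.50 to 4.25 at ZT4 and 6.64 to 12.3 at ZT15 (adjusted p = 0.079).

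The clock output list had 150 peaks, of which 16 were higher and 18 lower (10.7% and 12.0%), with a median of 0.012. Among the D-box factors, Dbp had 4 of 7 peaks higher, and the one of smallest p (chr7:45708220-45708420) had 64.3, 58.6, 46.2 and 49.9 normalized reads at ZT4 and 28.2, 41.3, 26.1 and 34.1 at ZT15 (0.73 ± 0.16, adjusted p = 0.0016). An upstream peak of Hlf rose by 0.41 ± 0.09, from 100 to 122 across the ZT15 mice to 139 to 154 across the ZT4 mice. Tef had 8 peaks and none passed (smallest adjusted p = 0.063). Their repressor Nfil3 had an intron peak with 151, 148, 178 and 156 at ZT4 and 98.8, 77.4, 80.2 and 73.3 at ZT15 (0.93 ± 0.14, adjusted p = 1.8e-05). Thus Dbp, Hlf and Nfil3 each had a peak that was more open in the morning.

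Of the 18 falls of the output list, 16 were at Usp2, Noct, Wee1 and Insig2, and Nfil3 and Upp2 had 1 each. Usp2, a ubiquitin protease with a strong daily rhythm, had 7 of 13 peaks lower, and at 1 of them (chr9:44079466-44079666) the mice had 6.29, 5.58, 8.84 and 3.19 normalized reads at ZT4 and 23.1, 31.7, 19.9 and 34.8 at ZT15 (−1.90 ± 0.28, adjusted p = 8.5e-06). Noct, which encodes nocturnin, had 5 of 15 peaks lower. Its promoter had 50.3 to 63.9 at ZT4 and 131, 169, 133 and 161 at ZT15, a difference of −1.37 ± 0.22 (adjusted p = 2.5e-05). It was thus a clock gene whose promoter itself was more open at night. Wee1, a kinase that holds back mitosis, had 13.3, 11.2, 9.83 and 18.1 at ZT4 and 37.2, 44.3, 37.0 and 33.4 at ZT15 (−1.43 ± 0.21). Insig2, a brake on SREBP processing, had 13.2 to 32.9 at ZT4 and 31.7 to 45.6 at ZT15 (−0.78 ± 0.22, adjusted p = 0.016), with overlap and an adjusted p of 0.051 to 0.097 without ZT4 mouse 2 or ZT15 mouse 1 or 3. At their peaks of smallest p, Por, the partner enzyme of cytochromes P450, was higher by 0.48 ± 0.15 (adjusted p = 0.027, and 0.053 to 0.12 in 6 alternatives) and Upp2 by 0.98 ± 0.19, and none of the 3 peaks of Elovl3 passed.

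Peaks near genes of fat synthesis were lower in the morning more often than higher. Of 190 peaks near genes of fatty acid and triglyceride synthesis, 31 were lower at ZT4 (16.3%, near 13 of 21 genes with a peak) and 14 higher (7.37%, near 6 genes), with a median of −0.11 beside 0.085 over all peaks. Of the 31 falls, 9 were at Angptl8, an inhibitor of lipoprotein lipase, and 7 at Scd1, a desaturase. The falls outnumbered the rises on every scale, with 36 against 10 after centring. Among the rises, an intron of Dgat2, which makes triglycerides, had 84.6, 98.3, 70.7 and 74.4 normalized reads at ZT4 and 31.4, 30.2, 30.9 and 31.9 at ZT15 (1.33 ± 0.20, adjusted p = 7.9e-06). Mlxipl, the gene of the sugar sensor ChREBP, rose by 1.28 ± 0.20, and Fads2, a desaturase, by 0.98 ± 0.15. The peaks of smallest p in this list were thus rises, although falls were more frequent.

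Of 123 peaks of sterol synthesis and the LDL receptor axis, 13 were lower (10.6%) and 6 higher (4.88%), with a median of −0.028. The falls lay near 5 of 23 genes with a peak, and 9 of the 13 were at Insig1, which had 22 peaks. Insig1, an anchor of SREBP in the endoplasmic reticulum, had a distal peak (chr5:28050869-28051069) with 19.6, 11.9, 9.83 and 12.8 at ZT4 and 69.9, 50.2, 61.7 and 57.3 at ZT15 (−2.02 ± 0.20, adjusted p = 5.3e-09). The lowest night value was more than 2 times the highest morning value. Hmgcs1, an early enzyme of the sterol pathway, had 11.9, 11.2, 4.91 and 14.9 at ZT4 and 25.7, 39.1, 38.4 and 33.4 at ZT15 (−1.56 ± 0.28).

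Of 168 peaks of fatty acid oxidation and ketogenesis, 24 were lower (14.3%) and 14 higher (8.33%), with a median of −0.025. An upstream peak of Acot4, a peroxisomal thioesterase, had 14.7, 9.76, 6.88 and 7.44 at ZT4 and 34.0, 38.4, 39.8 and 42.8 at ZT15 (−1.84 ± 0.23, adjusted p = 2.8e-07). Ehhadh, an enzyme of peroxisomal oxidation, fell by 1.13 on the log2 scale (SE 0.15), with 27.6 to 39.0 at ZT4 and 62.7 to 91.1 at ZT15. Both lipid-making and lipid-burning lists had a larger share of lower peaks than the 5.70% of all peaks.

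**Figure D4:**
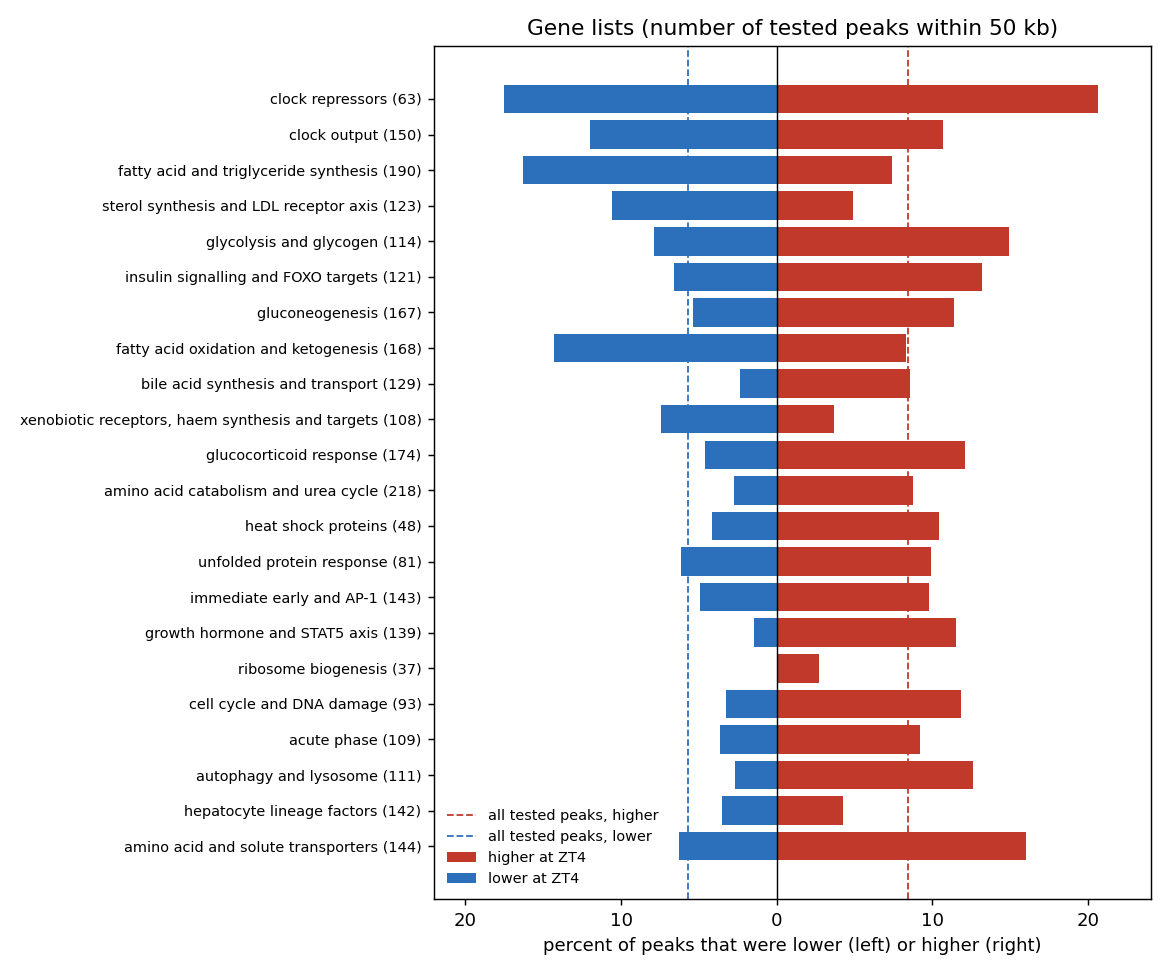
Bars give, for each gene list, the percent of its tested peaks (number in parentheses) that were lower at ZT4 (blue, to the left) or higher (red, to the right), and dashed lines give the 5.70% and 8.42% of all tested peaks. Fatty acid and triglyceride synthesis reaches 16.3% to the left, and amino acid and solute transporters 16.0% to the right. Of the 31 lower peaks of fat synthesis, 9 are at Angptl8 and 7 at Scd1. Of the 23 higher transporter peaks, 10 are at Slc7a2.

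Glycogen, insulin and gluconeogenesis genes had more rises than falls on the deposited scale. Of 114 peaks of glycolysis and glycogen, 17 were higher (14.9%) and 9 lower (7.89%), but after centring 8 were higher and 10 lower. Besides Gys2, the glycogen-targeting subunit gene Ppp1r3c had 81.1, 99.7, 74.7 and 104 normalized reads at ZT4 and 26.3, 22.9, 22.6 and 26.8 at ZT15 (1.78 ± 0.24, adjusted p = 2.5e-06). Both genes serve glycogen storage, and both groups of mice were clearly apart at these peaks. Of 121 peaks of insulin signalling and FOXO targets, 16 were higher (13.2%) and 8 lower (6.61%), and edgeR gave 9 each. Igfbp1, a FOXO target that binds insulin-like growth factors, had 145, 151, 153 and 159 at ZT4 and 101, 70.1, 76.8 and 97.2 at ZT15 (0.82 ± 0.13). Of 167 gluconeogenesis peaks, 19 were higher (11.4%) and 9 lower (5.39%), and 8 of the 19 were at Pck1. The medians of these 3 lists were 0.090, 0.077 and 0.010, beside 0.085 over all peaks. Peaks of 2 regulators in that list fell, Sik1, a kinase that restrains CREB coactivators, and the transcription factor Klf15. The Sik1 peak (chr17:31904130-31904330) had 24.5, 27.2, 20.6 and 23.4 at ZT4 and 86.6, 124, 117 and 105 at ZT15 (−2.08 ± 0.20, adjusted p = 1.7e-09). The Klf15 peak had 11.2 to 14.7 at ZT4 and 20.6 to 43.6 at ZT15 (−1.19 ± 0.22).

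Of 129 bile acid peaks, 11 were higher (8.53%) and 3 lower (2.33%). Cyp7a1, whose enzyme limits how fast bile acids are made, had 115, 165, 143 and 119 normalized reads at ZT4 and 71.2, 76.7, 93.2 and 95.7 at ZT15 at a peak 12684 bases from its start (0.67 ± 0.13, adjusted p = 0.00038). Klb, the FGF15 and FGF21 coreceptor, rose by 1.13 ± 0.16. Both were without overlap. Of 108 peaks of xenobiotic receptors, haem synthesis and their targets, 4 were higher (3.70%) and 8 lower (7.41%). The medians of both lists were 0.048 and −0.001. Alas1, the first enzyme of haem synthesis, had 27.3, 46.7, 11.8 and 21.3 at ZT4 and 69.3, 87.8, 76.8 and 87.0 at ZT15 (−1.65 ± 0.23, adjusted p = 4.1e-06).

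Of 174 peaks of the glucocorticoid response, 21 were higher (12.1%) and 8 lower (4.60%), with a median of 0.11. The rises lay near 8 of 20 genes with a peak, and 9 of the 21 were at Klf9. Klf9, a glucocorticoid-induced repressor, had a peak (chr19:23134581-23134781) with 42.7, 48.1, 31.4 and 40.4 at ZT4 and 10.9, 11.1, 14.4 and 10.2 at ZT15 (1.64 ± 0.19, adjusted p = 1.0e-07). Tsc22d3, which encodes GILZ and is another classical target, had 16.1, 13.9, 15.7 and 20.2 at ZT4 and 68.0, 61.2, 64.4 and 56.6 at ZT15 (−1.81 ± 0.18, adjusted p = 5.1e-09). These targets of 1 receptor thus moved in opposite directions.

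Amino acid catabolism had 19 of 218 peaks higher (8.72%) and 6 lower (2.75%), and its median was 0.099. After centring 13 were higher and 11 lower, and in edgeR 14 and 13. After quantile normalization 12 were higher and 15 lower, and in DESeq2 9 and 16. Ass1, an enzyme of the urea cycle, had 60.8, 62.1, 31.4 and 53.1 at ZT4 and 12.2, 14.0, 11.7 and 13.1 at ZT15 (1.83 ± 0.40, adjusted p = 0.0017). Transporters of amino acids and other solutes had 23 of 144 peaks higher (16.0%) and 9 lower (6.25%), with a median of 0.13 and more rises on every scale. The rises lay near 7 of 16 genes with a peak, and 10 of the 23 were at Slc7a2. Slc7a2, a carrier of arginine and lysine, had an intron peak with 143, 158, 144 and 135 at ZT4 and 66.1, 61.2, 76.1 and 63.8 at ZT15 (1.10 ± 0.14, adjusted p = 3.8e-07). Slc38a4, a carrier of neutral amino acids, held changes both ways. Its intron peak at chr15:97029470-97029670 rose by 1.16 ± 0.16 and its intron peak at chr15:97015337-97015537 fell by 0.92 on the log2 scale (SE 0.12), each without overlap.

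Of 139 peaks of the growth hormone and STAT5 axis, 16 were higher (11.5%) and 2 lower (1.44%), with a median of 0.14, and rises led on every scale. Cux2, a repressor of sex-biased liver genes, had 34.3, 46.7, 35.4 and 36.1 at ZT4 and 7.70, 5.90, 29.5 and 13.8 at ZT15 (1.51 ± 0.29). Bcl6, a repressor that opposes STAT5, rose by 1.08 ± 0.25, and Igfbp2 by 0.62 ± 0.11. Autophagy and lysosome genes had 14 of 111 peaks higher (12.6%) and 3 lower (2.70%), with a median of 0.12, also led by rises on every scale. The promoter of Gabarapl1, a protein of the autophagosome membrane, had 108, 96.2, 108 and 128 at ZT4 and 81.5, 64.9, 71.3 and 64.6 at ZT15 (0.62 ± 0.13), and Ulk1, the kinase that starts autophagy, rose by 0.61 ± 0.11 and the mitophagy receptor Bnip3 by 1.10 ± 0.20.

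Several lists had rises on the deposited scale that did not lead on at least 1 other scale, which is given in parentheses. The unfolded protein response had 8 higher and 5 lower of 81 peaks (3 and 5 after centring), with Xbp1 at 0.89 ± 0.19, Hsp90b1 at 0.79 ± 0.16 and Chac1 at 1.44 ± 0.24. Immediate early and AP-1 genes had 14 and 7 of 143 (7 and 8 after centring), cell cycle and DNA damage genes 11 and 3 of 93 (2 and 6 after quantile normalization), acute phase genes 10 and 4 of 109 (5 and 7 in DESeq2), hepatocyte lineage factors 6 and 5 of 142 (5 and 7 after centring), and heat shock proteins 5 and 2 of 48 (4 and 5 after quantile normalization). Ribosome biogenesis genes had 1 higher and no lower peak of 37 (1 each after centring). In the order named, the higher shares were 9.88%, 9.79%, 11.8%, 9.17%, 4.23%, 10.4% and 2.7%, beside 8.42% of all tested peaks. The lower shares were 6.17%, 4.9%, 3.23%, 3.67%, 3.52%, 4.17% and 0%, beside 5.70% of all tested peaks. Lineage factors and ribosome biogenesis genes thus had fewer changed peaks than all peaks in both directions. Rises still led after centring in cell cycle genes (7 and 5), acute phase genes (7 and 5) and heat shock proteins (4 and 3). In edgeR they led in the same lists and in immediate early genes (10 and 8). They also led in acute phase genes after quantile normalization (11 and 6) and in heat shock proteins in DESeq2 (4 and 2). The medians of these 7 lists lay between 0.010 and 0.18. The promoter of Hspb1, a small heat shock protein, was among the few promoters with a large fall, with 29.4, 28.6, 26.5 and 53.1 at ZT4 and 81.5, 130, 74.7 and 118 at ZT15 (−1.52 ± 0.20, adjusted p = 8.7e-07). Hspa8, a constitutive chaperone, rose by 0.76 ± 0.16 upstream of its start. Nr2f2, a nuclear receptor, rose by 1.14 ± 0.22, and Orm1, an acute phase protein, fell by 1.01 on the log2 scale (SE 0.24).

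The same clock times were compared in fasted hepatocytes, where ZT15 is 3 h and ZT4 is 16 h of fasting, so that clock time and length of fast cannot be told apart. In fasted mice 21272 of the 46827 tested peaks differed between ZT4 and ZT15 (45.4%), with 14991 higher and 6281 lower. On the deposited scale, rises were thus more frequent than falls over all peaks, and the median difference was 0.17. The shares of agreement given below for rises and for falls therefore have unlike bases. The fasted calls numbered 17955 after median centring and 13804 after quantile normalization, and their split into rises and falls there is not given here. The fed and the fasted difference themselves differed at 9030 peaks (19.3%) in the interaction test. Of the 3945 peaks higher in fed mice, 1799 were also higher in fasted mice (45.6%, which is 12.0% of all fasted rises), 332 were lower (8.42%) and 1814 did not pass there. The interaction passed at 1155 of them (29.3%). Of the 2667 peaks lower in fed mice, 906 were lower in fasted mice (34.0%, and 14.4% of all fasted falls), 351 were higher (13.2%) and 1410 did not pass. The interaction passed at 1142 of them (42.8%). Across the 6612 peaks, Pearson's r between both differences was 0.38, over peaks that share libraries within each feeding state and were chosen on 1 axis. Over all tested peaks r was 0.20.

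**Figure D5:**
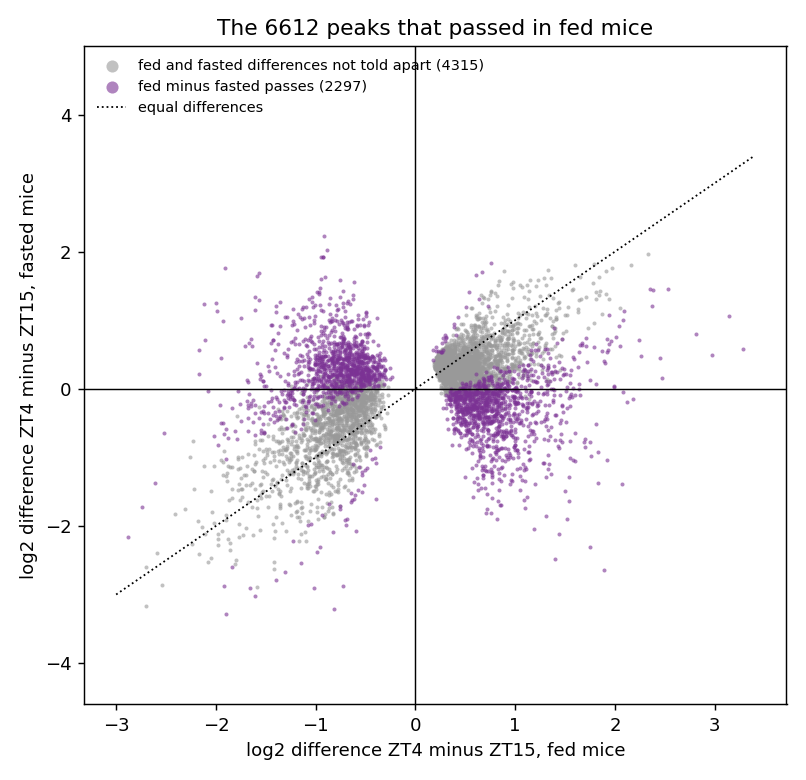
Each point is 1 of the 6612 peaks that passed in fed mice, with the fed log2 difference ZT4 minus ZT15 on the x axis and the fasted one on the y axis. Purple marks the 2297 peaks at which the fed and fasted differences differed in the interaction test, and many of them lie near or across the line of no fasted difference.

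Clock genes had like differences in both states at several peaks. Nr1d1 had 1.65 ± 0.18 in fed and 1.63 in fasted mice, with an interaction of 0.03 (adjusted p = 0.95). Usp2 had −1.90 and −1.84, and Noct −1.78 and −1.48. These values do not show that the states were equal. Per3 and Ciart had larger falls in fed than in fasted mice, at −1.24 against −0.52 and −1.55 against −0.60, with interactions of −0.72 and −0.95 (adjusted p = 0.031 and 0.041). Nfil3 had a larger rise in fed mice by 0.61 (adjusted p = 0.032). The Per3, Ciart and Nfil3 peaks were chosen on their fed p, and the fed difference also enters the interaction. A smaller fasted value is thus partly expected from that choice.

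Several peaks of metabolic genes changed in opposite directions in the 2 states. The Dgat2 peak was higher at ZT4 by 1.33 in fed mice and lower by −1.18 in fasted mice, an interaction of 2.51 (adjusted p = 3.9e-07). The Ass1 peak had 1.83 and −1.38 (interaction 3.21, adjusted p = 0.00016). Its fasted ZT4 mice were uneven, at 33.2 ± 31.6 normalized reads (SD, n = 4). At Chac1, which degrades glutathione, the values were 1.44 and −2.12 (interaction 3.57, adjusted p = 6.7e-08). Upp2, a uridine phosphorylase, had 0.98 and −1.01 (interaction 1.98, adjusted p = 5.9e-06). All 4 had opposite signs that passed in both states. The largest fed rises were smaller in fasted mice, with 0.58 at Smyd1, 0.49 at Smad5 and 0.81 at Pik3r1, and interactions of 2.70, 2.49 and 2.0. These peaks were chosen for their large fed difference, which also enters the interaction. A smaller fasted value is partly expected from that choice, so these values are a description. At peaks likewise chosen on their fed p, Klf9 had 0.07 in fasted mice (interaction 1.57) and Tsc22d3 −0.61 (interaction −1.20, adjusted p = 0.0011). Alas1 fell more in fasted mice, by −2.91, with an interaction of 1.25 (adjusted p = 0.0076).

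In macrophage nuclei of fed mice, 106 of 30170 peaks differed between ZT4 and ZT15 (0.351%), with 38 higher and 68 lower. The macrophage table was normalized separately, so the cell types were not tested against each other. Without each mouse in turn the count was between 52 and 82. Of the 106 peaks, 52 overlapped a tested hepatocyte peak and 27 a passing one, of which 24 had the same direction. Any overlap counted, down to 19 bp at Nr1d1, and the hepatocyte peak of smallest p was taken where several overlapped. An Aldh2 hepatocyte peak was counted for each macrophage peak it overlapped. Of all tested hepatocyte peaks 14.1% passed in either direction, a share not limited to peaks shared with macrophages. Fosb, an AP-1 gene, had at 1 peak (chr7:19327217-19327417) 38.5, 40.4, 53.1 and 51.0 normalized reads at ZT4 and 88.6, 104, 82.3 and 98.6 at ZT15 in hepatocytes, a difference of −1.01 ± 0.12, and −0.95 ± 0.12 in macrophages. Per2 had −0.98 ± 0.15 and −0.82 ± 0.19 at its intron peak. At Ntrk2 the differences were 2.54 ± 0.26 and 0.96 ± 0.16, and at Tsku, a secreted liver protein gene, −1.45 ± 0.16 and −0.42 ± 0.09. Another 3 peaks passed in opposite directions, near Dbp, Tspan4 and Nr1d1. At the Dbp peak (chr7:45705997-45706197) macrophages had 53.2 ± 26.6 at ZT4 and 94.2 ± 19.2 at ZT15, and hepatocytes 47.7 ± 16.2 and 24.4 ± 3.36 (SD, n = 4 each).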

How the data were processed

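ATAC-seq was done on bead-bound nuclei, with paired reads, per the labels' protocols. For each cell type the authors deposited a table of signal in each peak of each mouse, headed as normalized counts, and named the nearest gene. The submitters' processing notes name BWA 0.7.5a-r405, SAMtools, HOMER, DESeq2 and mm10 without their roles. All values (100%) are whole reads divided by 1 factor per library, within 0.01 of a read, and how the factor was set is not given in the sources used here. Reads in listed peaks of the 8 libraries numbered 3117114 to 4940608. Macrophage samples were run in technical duplicates per the labels, and the deposited table has 1 column per mouse.

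Log2(value + 2) was fitted with limma 3.58.1 (R 4.3.3) with 8 group means over the 32 hepatocyte mice and a prior variance that follows the level. The 46827 peaks with a mean of 10 or more were tested, with Benjamini-Hochberg adjustment and a threshold of 0.05, two-sided. The interaction is the fed minus the fasted difference. Other offsets, filters, scalings, variance models, sets of samples, sets of library numbers, a minimum fold, each mouse left out, edgeR 4.0.16 and DESeq2 1.42.0 on the recovered reads were tried. Scripts were tested on simulated data.

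Named peaks are the 12 largest differences in each direction that passed without overlap, 1 per gene, passing over predicted and small RNA genes, up to 3 passing peaks of smallest p per list, and for clock genes the peak of smallest p and the promoter peak. A list takes peaks within 50 kb of its genes. The text describes 88 of the 143 peaks so named. The printed promoters have the smallest p among windows with the motif upstream of the start whose gene is also the authors' nearest, passing over predicted genes, besides 3 clock genes, and the Tsku peak and those that passed in both cell types were chosen after their values were seen. Peaks, lists and comparisons were chosen with earlier results of these data known. Some results are not reported here. Motifs were sought in RefSeq promoter windows only, since no genome sequence was used here.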

Additional observations from a re-analysis of the deposited data

Results flagged for a closer look

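Of 176 groups of 4 mice at the described peaks, 10 had 1 mouse far from the other three by Dixon's test, which chance alone gives in about 1 of 20 groups. At ZT4 a mouse stood high at the Pmp2 peak (109 normalized reads), the Prkca peak (48.9), the Cux2 peak (46.7) and the Hspb1 promoter (53.1). A ZT4 mouse stood low at the Per1 peak (174), the Bcl6 peak (30.5), the Col27a1 peak (1.97) and the Clock peak (19.5). At ZT15 a mouse stood high at the Fads2 peak (42.8) and the Bcl6 peak (19.9).

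At 43 of the 88 described peaks the ZT4 minus ZT15 difference differed between fed and fasted mice in limma's interaction test. Over all tested peaks the share was 19.3%. The described peaks were mostly chosen on their fed difference or its p. That difference is part of the interaction, so the 2 shares are not alike. The values below are fed minus fasted on the log2 scale. Among peaks that rose in fed mice they were 2.70 at Smyd1, 2.49 at Smad5, 2.0 at Pik3r1, 1.08 at Ntrk2, 2.31 at Pmp2, 2.0 at Cyp2e1, 0.93 at G3bp1, 0.90 at Sdr9c7, 1.79 at D7Ertd443e, 1.53 at Gys2 and 2.33 at Lekr1. Among clock and lipid genes they were 0.61 at Nfil3, 1.98 at Upp2, 2.51 at Dgat2, 0.96 at Mlxipl and 0.73 at Fads2. Among genes of insulin, stress and amino acid metabolism they were 0.87 at Igfbp1, 1.57 at Klf9, 3.21 at Ass1, 0.88 at Xbp1, 3.57 at Chac1, 1.07 at Slc7a2, 1.19 at the higher Slc38a4 peak, 1.07 at Gadd45b and 1.00 at Hsp90b1. They were 1.99 at Cux2, 0.83 at Gabarapl1 and 0.63 at Ulk1.

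Among peaks that fell in fed mice, the interaction was −1.02 at Ier3, −1.25 at Mcrip2, −1.87 at Vcam1, −0.72 at Per3, −0.95 at Ciart, −1.18 at Insig2, −1.33 at Insig1, −1.14 at Hmgcs1, −1.62 at Klf15 and −0.62 at Ehhadh. It was −1.20 at Tsc22d3, −0.88 at Hspb1, −1.26 at the lower Slc38a4 peak and −1.50 at Orm1. At Alas1 it was 1.25, since the fall was larger in fasted mice.

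At 3 peaks that passed in both cell types the signs were opposite, and the difference between the cell types was not tested. In macrophages the ZT4 minus ZT15 difference was −0.40 near Nr1d1, −0.57 near Tspan4 and −0.91 near Dbp. In hepatocytes it was 0.95, 0.60 and 0.85. The Nr1d1 peaks of both tables overlapped by 19 bp only, and the hepatocyte peak at the macrophage position, the one nearest the Nr1d1 TSS, did not pass.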

How the results depend on the processing

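The balance of rises and falls moved with the scaling: 2502 peaks were higher after median centring and 2272 in DESeq2. A minimum of 2-fold left 494 higher, 684 lower, 3724 interaction, 2791 fasted and 14 macrophage peaks. Quantile normalization gave 13804 fasted and 167 macrophage peaks, and the contrast's own libraries gave 191 macrophage peaks. Leaving out each mouse gave 2669 to 3455 higher, 1976 to 2358 lower, 18587 to 21377 fasted, 7096 to 10687 interaction and 52 to 82 macrophage peaks. The macrophage count fell by over 1.5 times without ZT4 mouse 1 or 2 or ZT15 mouse 1, 3 or 4. A fit of the 16 fed libraries alone, chosen after seeing the data, gave 5445 higher and 3608 lower peaks. No described peak that passed changed sign in any alternative. Of the 81 described peaks that passed, 5 lost the call somewhere: Nr1d2 after quantile normalization (adjusted p = 0.14), Bhlhe40 there (0.12) and without ZT15 mouse 3 (0.067), Por in 6 alternatives (0.053 to 0.12), Insig2 in 3 (0.051 to 0.097) and Npas2 without ZT15 mouse 3 (0.053). The cause was not tested. No paired analysis was possible because mice of different groups share no number.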

Other observations

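Some genes had many peaks that changed 1 way. The genes below have at least 7 peaks within 50 kb that passed in 1 direction, a rule chosen after the data were seen, so that no test is given. Levels are sums over all tested peaks of the gene, as the range over 4 mice. Klf9 had 9 of 10 peaks higher at ZT4, with sums of 819 to 1013 normalized reads at ZT4 and 447 to 539 at ZT15. Slc7a2 had 10 of 16 higher (1008 to 1157 and 635 to 759), and Lifr, the receptor of leukaemia inhibitory factor, 7 of 15 (1258 to 1583 and 1040 to 1103). Pck1, the key enzyme of gluconeogenesis, had 8 of 12 higher, but its sums overlapped at 855 to 1606 and 646 to 1006. Slc25a33, a mitochondrial pyrimidine carrier, had 7 of 19 higher and 2 lower.

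In the other direction, G0s2, an inhibitor of the lipase ATGL, had 8 of 9 peaks lower at ZT4, with sums of 358 to 431 at ZT4 and 541 to 859 at ZT15. In fasted mice all 9 of its peaks were higher at ZT4, with sums of 576 to 778 against 346 to 484, and the interaction passed at 8. Tsku had 12 of 16 lower (962 to 1049 and 1444 to 1664). Angptl8, an insulin-induced inhibitor of lipoprotein lipase, had 9 of 16 lower (1045 to 1223 and 1375 to 1680), Insig1 9 of 22 (1700 to 1848 and 2000 to 2301) and Scd1, a desaturase of fat synthesis, 7 of 14 (683 to 914 and 1137 to 1353). Usp2 had 7 of 13 lower and Sept9 7 of 26. Prkag2, a subunit of AMP kinase, had 7 of 28 lower and 1 higher, with overlapping sums. After median centring, Slc7a2 and Slc25a33 had 9 and 5 higher peaks, and the other counts of changed peaks named here were equal or larger.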
